A study of Mus musculus with 12 samples.

Results

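Solute carriers are membrane proteins encoded by genes whose symbols start with Slc and a family number. All probe sets whose only annotated symbol was of this form were taken, without regard to their values, which gave 533 of the 36701 probe sets other than controls and 310 of the 15964 genes named by 1 symbol. Of these probe sets, 185 were on the Affymetrix U74Av2 array, 218 on U74Bv2 and 130 on U74Cv2. They were put into classes by the substrate that each family is known to carry, and 10 probe sets of 5 genes that carry an Slc symbol without being transporters were kept as a class of their own.

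Total adult thymocytes of 2 groups of mice were compared. AND-TCR–transgenic mice of the H-2b background express a rearranged TCR that sees MHC class II, which directs positive selection of their thymocytes into the CD4 lineage. C57BL/6 mice served as the wild type and carry no such transgene. Each group was hybridized 2 times to each array type, 12 arrays in all. The paper calls the repeats independent experiments, but neither it nor the labels say whether separate mice were used, and p-values measure the spread between these hybridizations. The C57BL/6 arrays had all been run on module 2 of the fluidics station, whereas module 4 had served for the transgenic group, and module and group cannot be told apart.

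Solute carriers move nutrients, ions and metabolites across the plasma membrane and the membranes of organelles. Immature thymocytes divide before they rearrange the TCR α chain and then rest as CD4/CD8 double-positive (DP) cells, and T lymphocytes are known to take up more amino acids and glucose when they are activated. Several amino acid transporters work as heterodimers, in which a light chain of the Slc7 family pairs with the heavy chain Slc3a2. Slc43a1 and Slc43a2, in contrast, carry large neutral amino acids without a partner. Most members of the Slc25 family lie in the inner mitochondrial membrane and exchange nucleotides, phosphate, iron and metabolites with the cytosol.

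Values are intensities in arbitrary units, and the detection limit, 2 SDs of the noise, was 420.8 on U74Av2, 869.4 on U74Bv2 and 1578.7 on U74Cv2. Of the 533 Slc probe sets, 288 were above the limit on none of the 4 arrays of their type, 119 were above it on all 4, and 164 (30.8%), for 132 genes, passed it on both arrays of a group, which was the condition for a test. Over all probe sets this share was 35%. It was 45.1% for mitochondrial carriers (32 of 71), 40% for metal ion transporters (20 of 50), 34.8% for amino acid transporters (32 of 92), 24.4% for sugar transporters (11 of 45), 20% for inorganic ion transporters (14 of 70) and 10.5% for monocarboxylate transporters (2 of 19). A probe set that passed through 1 group alone had to differ to some degree, so the counts below describe the tested probe sets and not all members.

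**Figure D1:**
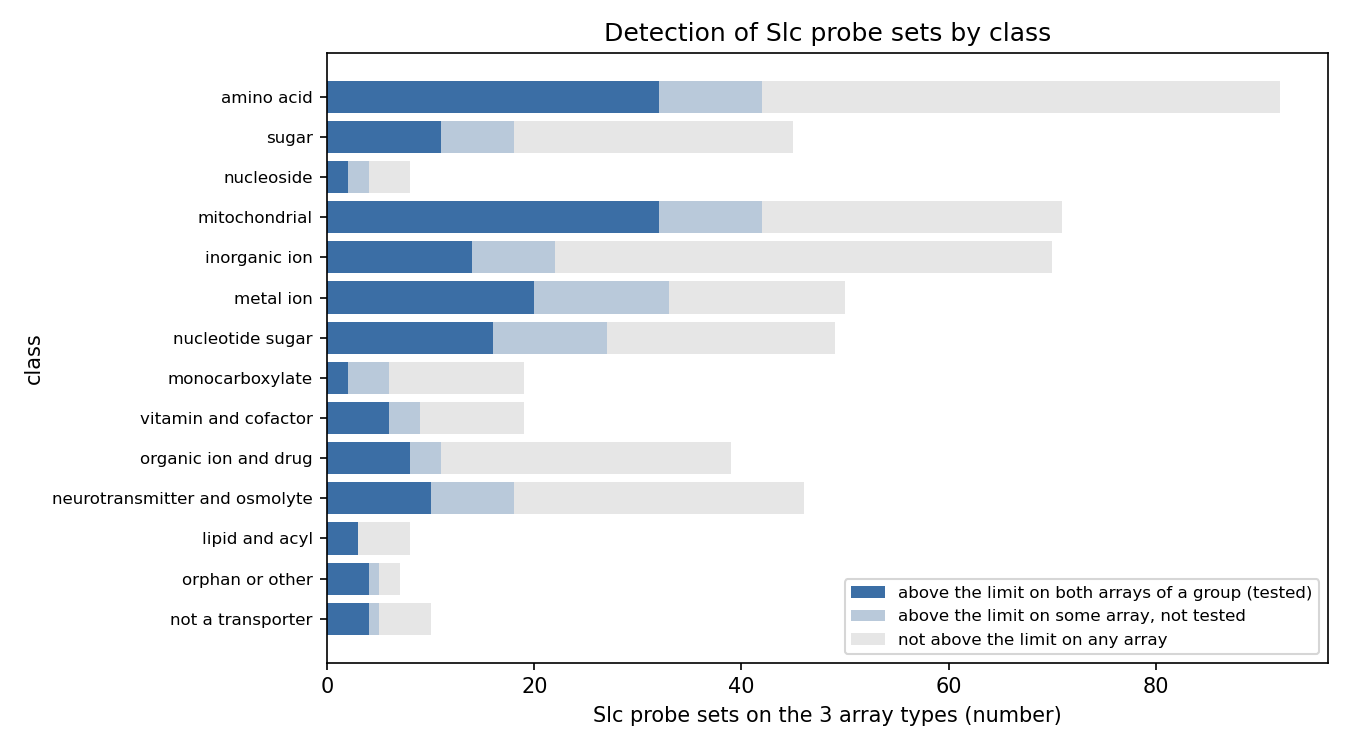
Number of Slc probe sets on the 3 array types (x axis) in each substrate class (y axis), split into those tested, those above the detection limit on some array but not tested, and those not above it on any array. Mitochondrial carriers had 32 of 71 probe sets tested and monocarboxylate transporters 2 of 19.

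In limma with Benjamini-Hochberg adjustment over all 12844 tested probe sets, 4 Slc probe sets of 4 genes had lower levels in the transgenic group than in the wild type and 0 had higher levels. The 4 lower ones were 2.44% of the 164 tested, beside 0.568% of all tested probe sets called lower and 0.483% called higher. Of these 4, 3 exceeded the limit on each of the 4 arrays, and 1, Slc7a11, was tested because of its C57BL/6 level alone. At an unadjusted p under 0.05, 19 Slc probe sets (11.6%) were lower, beside 6.51% of all, and 10 (6.1%) were higher, beside 7.47% of all. The values of both AND-TCR–transgenic arrays lay below both C57BL/6 arrays for 41 Slc probe sets (25%), beside 21.4% of all, and above them for 37 (22.6%), beside 23% of all. The counts without adjustment in the higher direction and the counts of groups apart were thus close to the background. With the hybridization number as a block, 5 Slc probe sets (3.05%) were lower and 0 higher, beside 1.18% and 1.21% of all. The median log2 fold change of the tested Slc probe sets was 0.04, beside 0.02 over all tested probe sets, and 73.8% of them lay within 0.5 of 0 on the log2 scale, beside 77.7% of all.

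**Figure D2:**
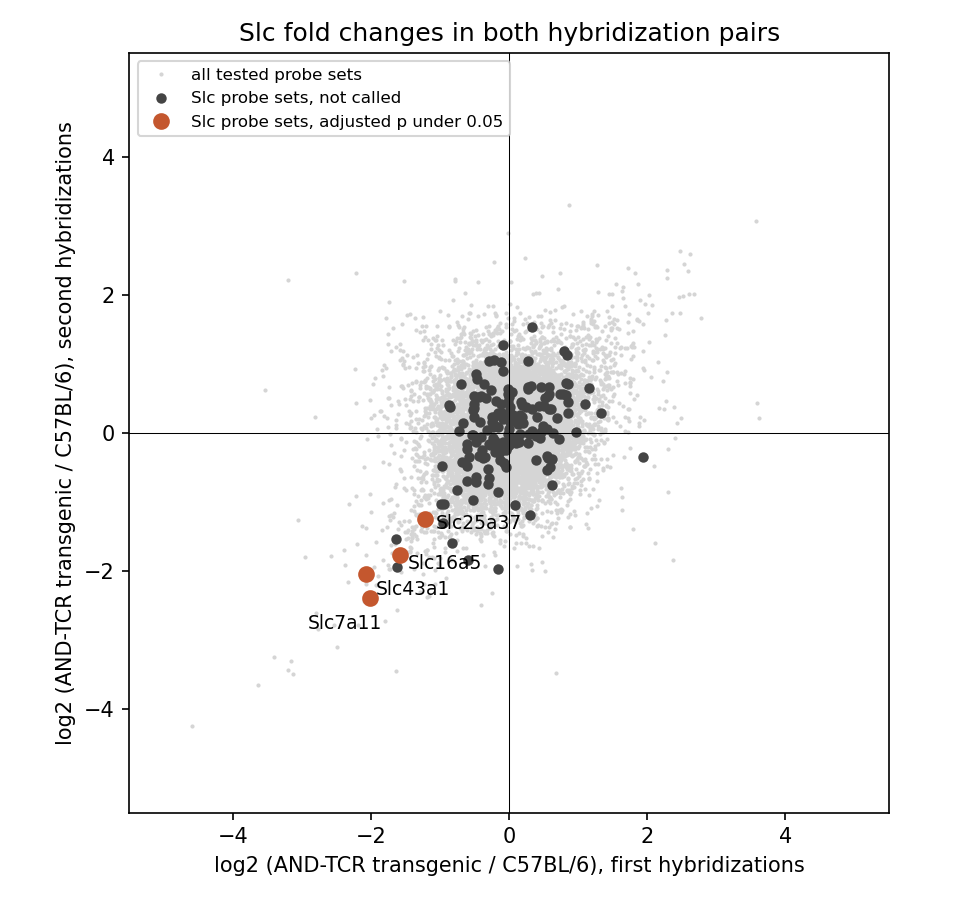
Log2 ratio of AND-TCR–transgenic over C57BL/6 intensity for the first hybridizations (x axis) and the second hybridizations (y axis). Each point is 1 probe set, and the 4 called Slc probe sets lie at the lower left, between -1.21 and -2.08 on the x axis and between -1.25 and -2.39 on the y axis.

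Amino acid and peptide transporters held 2 of the 4 called genes, Slc43a1 and Slc7a11. Slc43a1, a carrier of large neutral amino acids such as leucine, read 4434 and 4085.5 on the C57BL/6 arrays and 1051 and 987 on the AND-TCR–transgenic arrays. All 4 values were above the limit of 869.4, and the groups did not overlap. Its log2 fold change was -2.06 (SE 0.26), a 4.18-fold lower level, with a limma adjusted p of 0.0359.

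Slc7a11, the light chain of the exchanger that brings cystine into the cell and releases glutamate, read 3518 and 4550.3 in C57BL/6 thymocytes. It read 39.7 and 34.9 in AND-TCR–transgenic thymocytes, not above the limit on either array. Slc7a11 was therefore at least 4.60-fold lower (limma adjusted p = 0.0415). It was tested because of the group in which it was high, and both transgenic values were set to the limit and had no spread, so this p is no independent support for the difference. A second Slc7a11 probe set, on U74Av2, was not above the limit on any of the 4 arrays.

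The RefSeq promoter windows of these 2 amino acid transporters are shown because they were the called genes of the class, with 250 bases before and 50 bases after the annotated start on GRCm38.p6. Capitals mark matches, on either strand, to TGATGNAA (the amino acid response element), TGACNNNGC (the core of the antioxidant response element) and CANNTG (the E box). Slc43a1 is at chr2:84840073-84840372 on the plus strand and Slc7a11 at chr3:50443564-50443863 on the minus strand.
Slc43a1: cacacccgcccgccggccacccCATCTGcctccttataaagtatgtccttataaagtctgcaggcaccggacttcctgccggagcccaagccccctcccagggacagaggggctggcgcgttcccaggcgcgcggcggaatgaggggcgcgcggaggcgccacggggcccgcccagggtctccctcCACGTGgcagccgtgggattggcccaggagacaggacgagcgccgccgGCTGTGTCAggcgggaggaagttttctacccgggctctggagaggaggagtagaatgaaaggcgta
Slc7a11: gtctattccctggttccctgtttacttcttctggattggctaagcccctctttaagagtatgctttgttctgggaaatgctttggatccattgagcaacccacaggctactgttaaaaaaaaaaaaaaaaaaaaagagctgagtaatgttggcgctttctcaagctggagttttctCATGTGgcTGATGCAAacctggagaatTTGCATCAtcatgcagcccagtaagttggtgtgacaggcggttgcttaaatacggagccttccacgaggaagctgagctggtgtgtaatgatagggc
The Slc7a11 window held 2 matches to the amino acid response element, which 3.97% of all 32851 windows held at least once, and 1 E box. The Slc43a1 window held 1 match to the antioxidant response element core (12.4% of all windows) and 2 E boxes (72.3% of all windows). These matches describe the letters of the windows and say nothing of binding in thymocytes.

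Slc43a2, the closest relative of Slc43a1 and also a carrier of large neutral amino acids, read 7197 and 7794 in C57BL/6 and 4244 and 4373 in AND-TCR–transgenic thymocytes at its brightest probe set. The groups did not overlap, and its log2 fold change of -0.80 (SE 0.13) did not pass the adjusted threshold (limma adjusted p = 0.061), which it passed when probe sets had to exceed the limit on each of the 4 arrays (0.0331), with a started log in place of the floor (0.0462), with no filter and with a crossed block. The lowest adjusted p over the alternatives, 0.00151, came from limma with no filter, where p-values are unreliable. The crossed block was chosen after the data were seen. Without the trend in the prior variance the limma adjusted p was 0.184. The other tested Slc43a2 probe sets had log2 fold changes of -0.07 and -0.08 with overlapping groups, so the 3 probe sets of this gene differed in size.

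Slc15a2, which takes up di- and tripeptides, had the smallest p among the Slc probe sets with higher values in AND-TCR–transgenic thymocytes. It read 3949.5 and 4797 in C57BL/6 and 8785 and 7511 in AND-TCR–transgenic thymocytes, a log2 fold change of 0.90 (SE 0.16) with a limma adjusted p of 0.0802. It passed the threshold in the same 4 alternatives. Its limma adjusted p was 0.0315 for the limit on each of the 4 arrays and 0.0496 for the started log. The limits given above for the fit with no filter (limma adjusted p = 8.07e-05) and for the crossed block hold here too. Without the trend in the prior variance the limma adjusted p was 0.2. Slc7a1, a carrier of arginine and lysine, read 1086 and 1073 against 1859 and 1584, a log2 fold change of 0.67 that did not pass the threshold (limma adjusted p = 0.316).

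The glutamine and neutral amino acid transporters did not pass the adjusted threshold. Slc38a2, a sodium-coupled carrier of neutral amino acids, had 4 tested probe sets with log2 fold changes between -0.55 and -0.51, of which 3 had groups that did not overlap. The one with the smallest p read 8063 and 9233 in C57BL/6 and 5257 and 6635 in AND-TCR–transgenic thymocytes (limma adjusted p = 0.222). All 3 tested probe sets of Slc1a5, a glutamine transporter, had log2 fold changes between -0.37 and -0.02. Those on U74Cv2 carry a suffix that marks probes shared by several sequences. The 3 tested probe sets of Slc38a9, a lysosomal protein that senses arginine, had log2 fold changes between -1.07 and -0.60, with limma adjusted p between 0.129 and 0.448, and Slc38a9 was singled out after its values were seen.

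The heterodimer of Slc7a5 and Slc3a2, which carries large neutral amino acids, did not pass the threshold in either subunit. Slc7a5 read 754 and 1120.1 in C57BL/6 and 1364 and 1366 in AND-TCR–transgenic thymocytes, a log2 fold change of 0.57 (SE 0.34, limma adjusted p = 0.524). Slc3a2, the heavy chain that pairs with both Slc7a5 and Slc7a11, read 3553 and 3482 against 3910.2 and 3186, a log2 fold change of 0.00 (SE 0.19).

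Over the class, 11 of the 32 tested amino acid probe sets were lower and 2 higher at an unadjusted p under 0.05, beside 6.51% and 7.47% of all tested probe sets. The groups lay apart for 14 in the lower and 6 in the higher direction, beside 21.4% and 23% of all. Of the 32, 9 were tested because of their C57BL/6 level alone and 2 because of their transgenic level alone. Over all 12844 these counts were 1367 and 1424. The filter thus favored lower values in this class more than over all, and the shares of all do not account for that. With the limit to be exceeded on each of the 4 arrays, 7 of 21 were lower at that unadjusted p. In that setting 1281 of all 10053 probe sets had such a p in either direction, and no share by direction was computed. The median log2 fold change was -0.26 over the 32 probe sets but 0.03 over the 22 genes. Of these genes, Slc38a2, Slc38a9, Slc1a5 and Slc43a2 had 3 or 4 tested probe sets each. By gene, 8 had a probe set that was lower and 2 a probe set that was higher at an unadjusted p under 0.05. A gene with several tested probe sets has more chances of such a p. No share over all tested genes was computed, so the counts by gene have no background. Without the first or the second AND-TCR–transgenic hybridization, fewer than these 11 amino acid probe sets were lower at that p. No share by direction was computed there either.

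**Figure D3:**
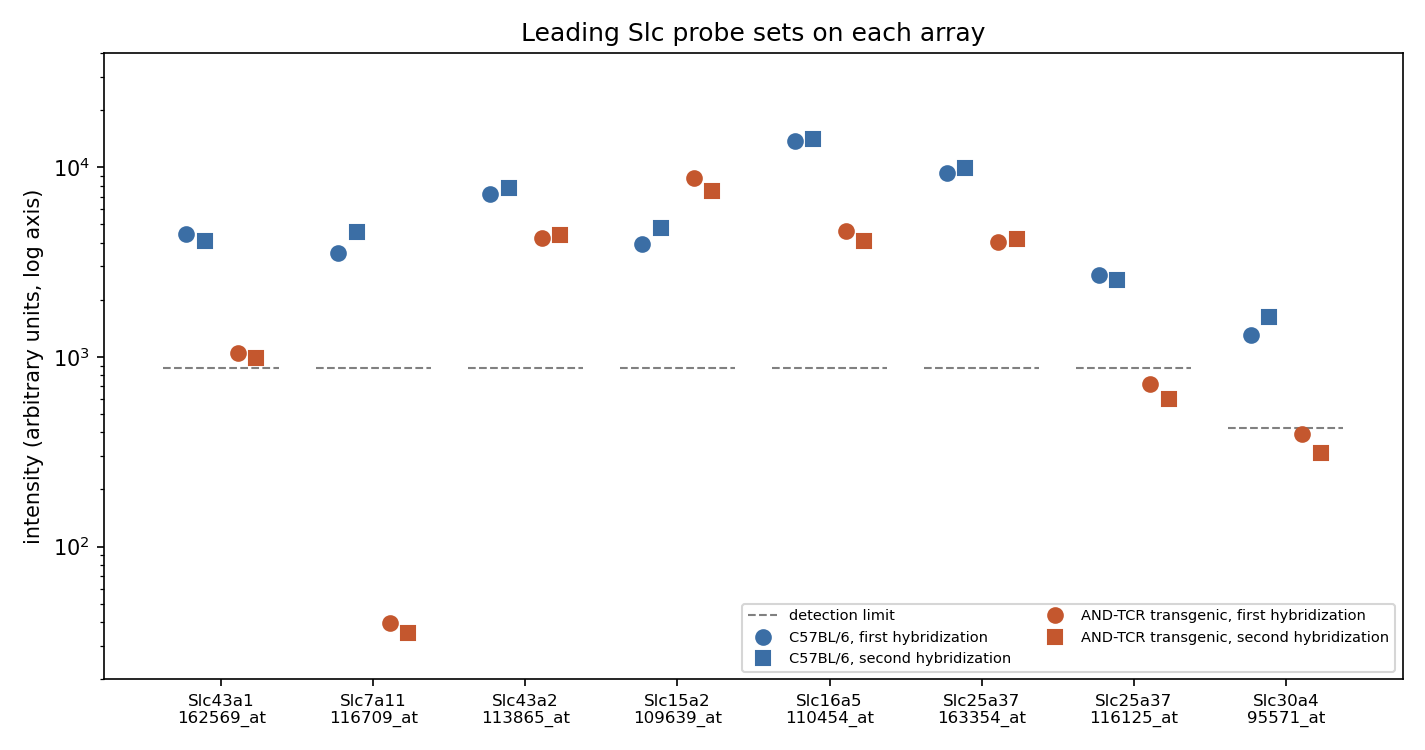
Intensity (y axis, log scale, arbitrary units) of 8 Slc probe sets (x axis) on each C57BL/6 and AND-TCR–transgenic array of their type, with the detection limit as a dashed line. Slc7a11 lies at 39.7 and 34.9 in AND-TCR–transgenic thymocytes, far under its limit of 869.4, and Slc15a2 is the probe set with higher values in AND-TCR–transgenic thymocytes.

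Slc16a5, a member of the monocarboxylate transporter family, had the smallest p of all Slc probe sets. It read 13751 and 14063 in C57BL/6 and 4588 and 4105 in AND-TCR–transgenic thymocytes, so that the groups lay far apart relative to the spread within each. Its log2 fold change was -1.68 (SE 0.12), a 3.20-fold lower level (limma adjusted p = 0.00901). The other tested member of the family, Slc16a9, had a log2 fold change of -0.14 with overlapping groups, and Slc16a1, a lactate transporter, was above the limit on 1 of its 4 arrays and was not tested.

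Slc25a37, which imports iron into mitochondria and is known for its role in heme synthesis in red cell precursors, was the called mitochondrial carrier. The called probe set read 9352.5 and 9897 in C57BL/6 and 4036 and 4162 in AND-TCR–transgenic thymocytes, a log2 fold change of -1.23 (SE 0.12) and a 2.35-fold lower level (limma adjusted p = 0.0186). A second probe set of Slc25a37 read 2706 and 2537 in C57BL/6 and, not above the limit, 717 and 597.5 in AND-TCR–transgenic thymocytes. This probe set was at least 3.01-fold lower, with a limma adjusted p of 0.0678. Like Slc7a11, it was tested because of its C57BL/6 level alone, with both transgenic values set to the limit. Its p is therefore no independent support for the difference. A further Slc25a37 probe set, on U74Cv2, was not above the limit on any array.

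Slc25a38, a glycine carrier that also serves heme synthesis, read 1859 and 1919 in C57BL/6 and 962 and 935 in AND-TCR–transgenic thymocytes. Its groups did not overlap, and its log2 fold change of -0.99 (SE 0.23) did not pass the threshold (limma adjusted p = 0.147). Of the red blood cell markers, 2 of 5 genes on the arrays were tested. Hba-a1, the α chain of hemoglobin, had a log2 fold change of -0.96 (limma adjusted p = 0.106), Klf1 had 0.19, and Epb42, Alas2 and Ermap were not above the limit on any array, while the summed level of the 2 tested genes was 11025 and 13237 in C57BL/6 and 8435 and 6122 in AND-TCR–transgenic thymocytes. The part of red cells in the Slc25a37 result was not tested.

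Most other mitochondrial carriers had log2 fold changes near 0 once readings under the limit were set to it. The median of the 32 tested probe sets, those of Slc25a37 included, was -0.03. The 14 positive and 18 negative log2 fold changes ran from -1.59, at the second Slc25a37 probe set, to 0.78. Outside Slc25a37 the lowest was -0.99, for Slc25a38, but the floor can hide larger differences. Of the 32, 7 passed the limit on both arrays of C57BL/6 alone and 4 on both of the transgenic group alone. Slc25a27 read 883 and 878 in C57BL/6 and 12.4 and -18.5 in AND-TCR–transgenic thymocytes. Its log2 fold change was -0.02, but -1.02 with the limit at 1 noise SD and -1.58 with the started log. For Slc25a47 these were -0.22, -1.22 and -1.24. The ADP/ATP carriers Slc25a4 and Slc25a5 had log2 fold changes between -0.39 and -0.16 over their 5 tested probe sets, none of which passed the threshold. Slc25a11, which exchanges oxoglutarate for malate, read 1752 and 2661 in C57BL/6 and 3159 and 3615 in AND-TCR–transgenic thymocytes, a log2 fold change of 0.65 (limma adjusted p = 0.323). Slc25a20, which brings acylcarnitines into the matrix, had a log2 fold change of 0.76 and groups that did not overlap (limma adjusted p = 0.387).

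Among metal ion transporters, none of the 20 tested probe sets passed the adjusted threshold in the unblocked fit. Slc30a4, which moves zinc out of the cytosol and was singled out after its values were seen, read 1300 and 1626 in C57BL/6 and, not above the limit of 420.8, 393.5 and 312 in AND-TCR–transgenic thymocytes. It was at least 3.45-fold lower with a limma adjusted p of 0.0554, which was 0.015 with the hybridization number as a block. Like Slc7a11 it was tested because of its C57BL/6 level alone, with both transgenic values at the limit, and neither p is independent support. Slc31a1, a copper importer, had 1 probe set with a log2 fold change of -0.65 and another with 0.46, so its 2 probe sets differed in sign, neither of them past the threshold. The class median was 0.07.

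Inorganic ion transporters had 10 positive and 4 negative log2 fold changes, beside 52% positive over all tested probe sets, and a median of 0.30. At an unadjusted p under 0.05, 4 of the 14 probe sets were higher and 0 lower, beside 7.47% and 6.51% of all, and 0 passed adjustment. Slc12a7, which moves potassium and chloride out of the cell together, read 2567 and 2324 in C57BL/6 and 3669 and 3298 in AND-TCR–transgenic thymocytes, a log2 fold change of 0.51 (limma adjusted p = 0.303), and its second probe set had 0.62. Slc13a4, a sodium-coupled sulfate carrier, had a log2 fold change of 0.99 (limma adjusted p = 0.193) at a probe set whose suffix marks probes shared by several sequences. Slc20a1, a sodium-coupled phosphate carrier, had 0.46. The class median was -0.04 in the first hybridizations and 0.44 in the second, so its size rested on the second.

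Sugar transporters had 9 positive and 2 negative log2 fold changes, beside 52% positive over all, and none was past the adjusted threshold. Slc2a3, a glucose transporter, read 1021 and 460.4 in C57BL/6 and 1290.2 and 1336 in AND-TCR–transgenic thymocytes, a log2 fold change of 0.94 (SE 0.43, limma adjusted p = 0.403). Slc2a1, the widely expressed glucose transporter, was not above the limit on any of its 4 arrays. The class median was 0.19, but -0.09 in the first and 0.53 in the second hybridizations.

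Of the nucleoside transporters, 2 of 8 probe sets were tested. Slc29a1, which equilibrates nucleosides across the plasma membrane, read 4222 and 4254 in C57BL/6 and 3112 and 3385 in AND-TCR–transgenic thymocytes. Its log2 fold change was -0.39, with a 95% interval from -0.78 to 0.01 (limma adjusted p = 0.374). Nucleotide sugar transporters, which supply the Golgi, had 16 tested probe sets with a median of 0.11, and the one with the smallest p, Slc35a1, a carrier of CMP-sialic acid, read 565 and 567 against 837 and 818 (log2 fold change 0.55, limma adjusted p = 0.447).

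**Figure D4:**
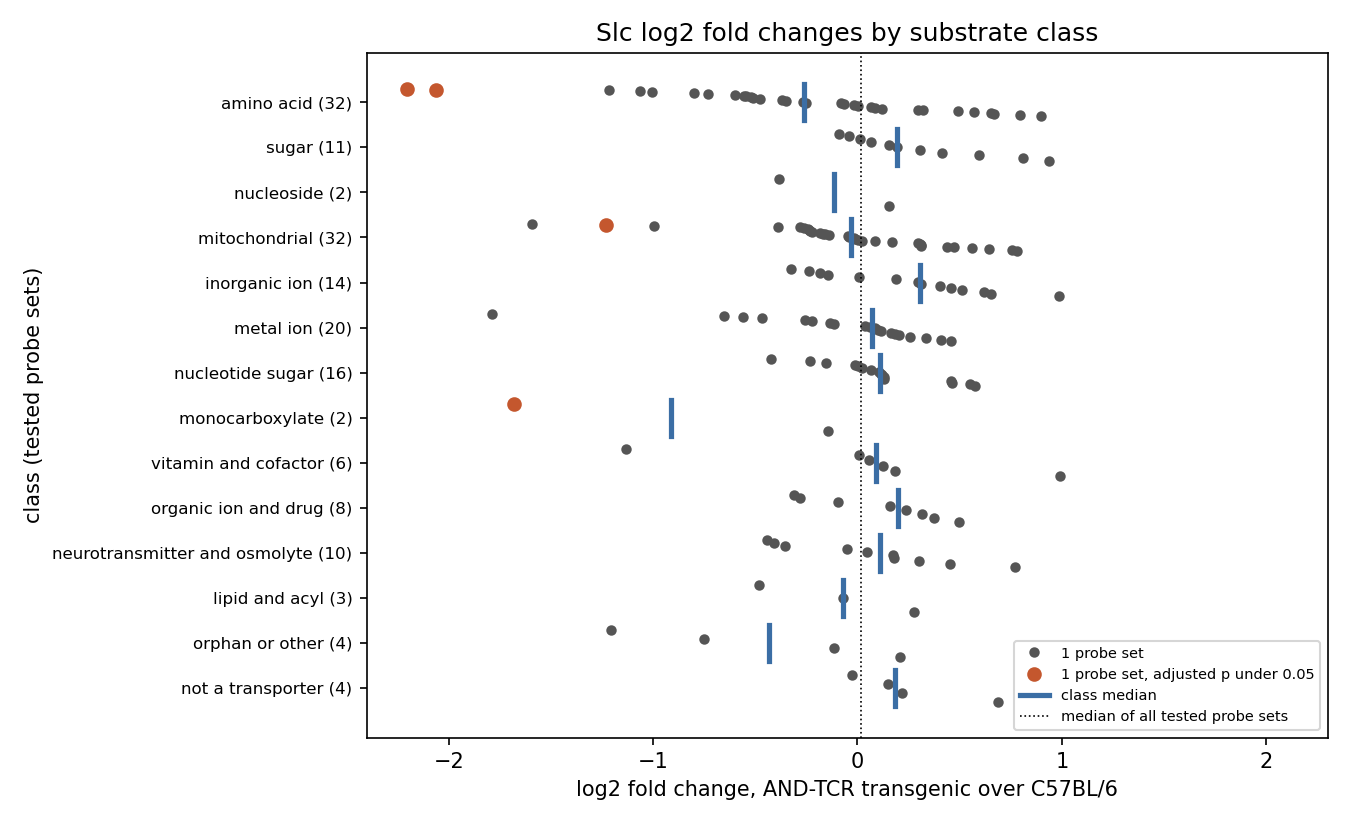
Log2 fold change (x axis) of each tested Slc probe set by substrate class (y axis, number of tested probe sets in parentheses), with the class median as a bar. The amino acid class has a median of -0.26 and the inorganic ion class of 0.30, beside 0.02 over all tested probe sets.

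Of the 30 genes listed from background knowledge of lymphocytes, with earlier results of these data known, Slc43a1 was called. No share of called genes over all tested genes was computed beside it. Slc28a2 and Slc46a2 had no probe set among the members, and Slc2a1, Slc7a6, Slc43a3, Slc11a1, Slc4a1, Slc12a2, Slc30a1 and Slc16a1 had none that was tested. Of the 24 genes with several tested probe sets, 16 had log2 fold changes of the same sign at all of them and 8 did not.

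Markers of thymocyte stages differed between the groups. Of the DP thymocyte markers, 9 of 11 tested genes were called lower, and their summed intensity was 239046 to 242577 in C57BL/6 and 93254 to 101992 in AND-TCR–transgenic thymocytes. Of the mature single-positive markers, 6 of 9 tested genes were called higher, with sums of 28349 to 29490 and 88241 to 93383. Of the 11 tested probe sets of this list, 10 had positive log2 fold changes. The other, of Il7r, read 2176.5 and 1729 in C57BL/6 and 1425 and 1426 in AND-TCR–transgenic thymocytes (log2 fold change -0.44). The largest term in the sums was a Ms4a4b probe set, at 9557 and 8837 against 31523 and 26949. The paper had already reported Ccr7, Gimap3 and Gimap4 as higher and Rag1 and Rag2 as lower in these arrays. These genes are in the marker lists, which were set with earlier results of these data known. The counts of called markers are thus no independent support. Ccr7 did not pass the threshold here (limma adjusted p = 0.051). Over all tested probe sets 0.568% were called lower and 0.483% higher, and no share by gene was computed. None of the 5 tested T cell genes, 5 B cell genes, 7 macrophage and dendritic cell genes and 1 epithelial gene was called. In these bulk samples, fewer cells of a type and less RNA per cell cannot be told apart, and the part of the cell types in the Slc results was not tested.

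The fits with 1 hybridization left out called 0 of all 12844 probe sets, with 1290 to 1968 at an unadjusted p under 0.05, and so say nothing of the 4 calls. Without any 1 of the hybridizations, the log2 fold changes of the 4 called probe sets stayed between -2.39 and -1.19. Their groups did not overlap, so the sign could not change. Without the trend in the prior variance their adjusted p were 0.0702 for Slc43a1, 0.0745 for Slc7a11, 0.086 for Slc16a5 and 0.1005 for Slc25a37, and with the limit at 4 noise SDs Slc7a11 had an adjusted p of 0.0655.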

How the data were processed

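Biotinylated cRNA from thymocyte RNA had been hybridized to 3 types of Affymetrix U74 array, and the authors used Microarray Suite 4.0 to obtain the values. What they deposited are linear intensities with a common scale, in part negative, and their type is not given in the sources used here. Scanner settings were read for module, run day and comments, and the first C57BL/6 U74Av2 array carried a rescan comment.

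Each array was brought to the trimmed mean of its type (2% dropped at each end). Negative values gave the noise SD (their median size times 1.4826), and readings under the limit of 2 noise SDs were set to it before log2, so that folds against a group under the limit are bounds. Probe sets above the limit on both arrays of a group entered limma (version 3.58.1, R 4.3.3, lmFit, eBayes with trend), 1 fit per array type, with Benjamini-Hochberg adjustment over all 12844. The number of arrays limits the precision, and an exact permutation test of 2 against 2 cannot go under 0.333. Scripts were tested on simulated data, in which false calls stayed rare when the spreads followed limma's fitted prior but were too frequent when they were as uneven as the single sample variances, so adjusted p may be too small if the true spreads are that uneven. Same-numbered hybridizations were run on the same day, and the correlations of their deviations were 0.04, -0.12 and -0.23 on the 3 array types, so the number was not taken as pairing.

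Symbols came from the platform annotation, and all 533 Slc probe sets matched RefSeq (GRCm38.p6) by gene identifier with 0 symbols changed. Members, classes and lists were chosen with earlier results of these data known, and 5 symbols that are not transporters were set apart after the files were opened and before any fit. Genes were named from the called genes with their families, the 2 higher and 2 lower probe sets of each class with the smallest p among those above the limit on all arrays with groups apart, and 30 lymphocyte genes; many of these that did not pass the threshold are given within counts or ranges of their class and not by name. Alternatives were the block, 2 other limits, 2 other filters, quantile normalization, a started log, no trend, adjustment within array types and leaving out each hybridization. Plots used matplotlib 3.10.9 under Python 3.11.15.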

Additional observations from a re-analysis of the deposited data

How the results depend on the processing

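The 4 called Slc probe sets had negative log2 fold changes under each alternative that tested them, but the calls depended on the setting. These alternatives were 13 for Slc16a5, Slc25a37 and Slc43a1 and 12 for Slc7a11. Their groups did not overlap, so leaving out a hybridization could not change the sign. The main fit called 4 probe sets and 4 genes lower and 0 higher. With no filter, 15 probe sets (2.81%) and 12 genes were lower and 2 probe sets (0.375%) higher, beside 1.1% and 1.13% of all. There limma warned that most residual variances were 0 and its p-values are unreliable. The started log gave 8 probe sets (4.88%) and 7 genes lower and 1 higher (Slc15a2, 0.61%), beside 1.16% and 1.04% of all. Above the limit on all 4 arrays, 4 were lower and 1 (Slc15a2) higher (3.36% and 0.84%, beside 1.26% and 1.28% of all). Without the trend there were 0, beside 9 lower and 1 higher of all 12844. With the hybridization number as a replicate block there were 5 lower (3.05%, beside 1.18% of all), Slc30a4 being the addition. With the crossed block, chosen after seeing the data, 7 were lower and 1 higher (4.27% and 0.61%, beside 1.76% and 1.78% of all). Leaving out 1 hybridization gave 0 calls in each direction over all 12844 probe sets when the same ones were tested, so that the 0 Slc calls say nothing of the members, and 24 to 28 Slc probe sets at an unadjusted p under 0.05. That choice of probe sets was made after the counts of another way had been seen: with probe sets chosen again on the 3 arrays kept, which admits those above the limit on a lone array, the calls ran from 0 to 23 probe sets and 0 to 22 genes lower and from 0 to 23 higher, with 23 lower (11.9%, beside 9.01% of all) without the second C57BL/6 and 23 higher (11.8%, beside 10.1% of all) without the first AND-TCR–transgenic hybridization. In these fits Slc16a5 was called without the first (adjusted p = 0.0159) or the second (0.0497) AND-TCR–transgenic hybridization, and Slc25a37 without the second C57BL/6 (0.045) or the first AND-TCR–transgenic one (0.0445). Both ways are alternatives of the same kind, and the cause of the difference was not tested beyond the number of probe sets admitted (185 to 195 Slc probe sets in place of 164).

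Of the counts without adjustment, the 19 lower of 164 were 29 of 533 with no filter and 11 of 119 above the limit on all 4 arrays. In both directions together, 42 of 533 Slc probe sets, beside 2644 of all 36701, had such a p with no filter. Above the limit on all 4 arrays these were 19 of 119, beside 1281 of all 10053. The 10 higher became fewer or more with a hybridization left out. The groups lay apart for 27 lower of 119 above the limit on all 4 arrays and for 21 higher of 92 with the limit at 4 noise SDs. With a hybridization left out, where fewer arrays must agree, they lay apart for 53 to 65 lower and 54 to 69 higher. The shares over all probe sets were not computed for these counts of groups apart. Nor were they computed by direction for the counts without adjustment in these alternatives, those of the amino acid class included. The 11 amino acid probe sets were 7 both at 4 noise SDs and above the limit on all arrays, and 6 to 8 with a hybridization left out. The class medians moved to 0 for amino acid, nucleotide sugar and organic ion transporters with no filter, to 0.0349 for amino acid transporters with 1 value per gene (chosen after seeing the data), to -0.10 for organic ion transporters at 4 noise SDs and to 0.47 for vitamin transporters at 1 noise SD. With a hybridization left out they ran from -0.0857 to 0.17 for neurotransmitter and osmolyte, from -0.0173 to 0.285 for nucleotide sugar and from -0.0503 to 0.23 for vitamin transporters.

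None of the members whose sign changed was called. Slc39a1 went to -0.00119 with quantile normalization. With a hybridization left out, log2 fold changes ran from -0.43 to 0.51 for Slc39a1, from -0.21 to 0.17 for 1 probe set of Slc1a5, from -0.23 to 0.47 for Slc38a1, from -0.14 to 0.15 for Slc3a2, from -0.48 to 0.35 and from -0.58 to 0.42 for the dimmer probe sets of Slc43a2, from -0.42 to 0.15 for Slc11a2, from -0.72 to 0.20 for Slc25a3, from -0.57 to 0.25 for 1 probe set of Slc25a5, from -0.41 to 0.12 for Slc16a9 and from -0.0813 to 0.45 for Slc19a1. Of 20 further probe sets of the Slc25 family, most of them given in the text as ranges, 11 changed sign in at least 1 of the 13 alternatives. The largest of these had a size of 0.31.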
